A study of Mus musculus with 6 samples.

Results

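The 10 genes described here are enzymes and chromatin regulators that set DNA methylation or are often mutated in clonal hematopoiesis: Dnmt1, Dnmt3a, Dnmt3b, Tet2, Tet3, Idh1, Idh2, Ezh2, Asxl1 and Kmt2a. They were chosen by symbol, and all 10 were found among the 32285 genes of the count matrices. Single-cell RNA was counted in 6 libraries of bone marrow LSK cells (lineage-negative, cKit+, Sca1+), the fraction that holds the hematopoietic stem cells (HSC) and the multipotent progenitors (MPP). All recipients were female C57BL/6J mice that carry CD45.1, were 8 to 12 weeks old and received no conditioning. The AML group (3 libraries) was injected intravenously with 1000000 C1498 cells, a murine acute myeloid leukemia line that carries CD45.2, and the PBS group (3 libraries) with saline, and marrow was taken at day 21. The sort kept CD45.1+ cells, which are cells of the host. The labels do not say how many mice a library holds. The authors' cell table gives each kept cell a class (HSC, MPP-2, MPP-3 or MPP-4), a cluster and a cell cycle phase, and holds 16822 of 48510 barcodes.

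DNA methyltransferases place methyl groups on cytosine: Dnmt3a and Dnmt3b write new marks, and Dnmt1 copies them to the daughter strand after replication. Tet2 and Tet3 oxidise methylcytosine and need 2-oxoglutarate, the product of the isocitrate dehydrogenases Idh1 (cytosol) and Idh2 (mitochondria). Ezh2 is the catalytic subunit of the Polycomb complex that methylates histone H3 at lysine 27, Asxl1 is a partner of the deubiquitinase Bap1, and Kmt2a (MLL) methylates histone H3 at lysine 4 and keeps Hox genes active. Loss of Dnmt3a or Tet2 in stem cells is known to give them an advantage over their neighbors with age.

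In the GRCm38 annotation, the methyltransferase genes lie at chr9:20907209-20959888 (Dnmt1, minus strand), chr12:3806007-3914443 (Dnmt3a, plus) and chr2:153649450-153687730 (Dnmt3b, plus). The Tet genes lie at chr3:133463679-133545139 (Tet2, minus) and chr6:83362373-83459084 (Tet3, minus), and the isocitrate dehydrogenases at chr1:65158616-65186500 (Idh1, minus) and chr7:80094846-80115392 (Idh2, minus). Ezh2 lies at chr6:47530139-47595341 (minus), Asxl1 at chr2:153345829-153404007 (plus) and Kmt2a at chr9:44803355-44881296 (minus). Another annotated gene overlaps 7 of the 10 on the opposite strand and 4 of the 10 on the same strand, and reads of such partners cannot be told apart here.

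Dnmt1 and Ezh2 were the only members with a match to an E2F-type motif in a RefSeq promoter window. Genes with several start sites had several windows, and those of Dnmt1 at chr9:20959839-20960138 and chr9:20952930-20953229 held no match. A link between the motif and levels across the cell cycle was not tested. E2F factors drive genes of DNA replication. The motifs TTTCCCGC, TTTCGCGC, TTTGCCGC and TTTGGCGC were searched on both strands from 250 bases before to 50 after each start site, and 2.61% of 27020 genes with a window hold a match, against 2 of the 10 members. The stretches that hold the matches are printed 5′ to 3′ on the strand of the gene (GRCm38.p6), with the match in capitals.
Dnmt1, chr9:20952824-20952853, minus strand, match on the opposite strand: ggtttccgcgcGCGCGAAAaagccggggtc
Dnmt1, chr9:20952574-20952603, minus strand: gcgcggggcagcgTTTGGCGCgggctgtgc
Ezh2, chr6:47595009-47595038, minus strand: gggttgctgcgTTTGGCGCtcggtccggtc
In the first Dnmt1 stretch the match begins at -219 from the start site, in the second at 33, and in the Ezh2 stretch at 3. A match is a description of the letters and does not show binding.

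The cell table holds 934 to 6838 cells of each PBS library, 693 cells of AML replicate 1, 3959 of AML replicate 3 and 0 of AML replicate 2, which therefore enters no comparison of groups. Median depth per cell ranged from 4015 to 9586 UMIs over the PBS libraries, and was 2393 UMIs in AML replicate 1 and 5910 in AML replicate 3. AML replicate 1 stands apart: 14.7% of its cells were in G1, against 49.0% in AML replicate 3 and 55.9% to 58.2% in the PBS libraries, and its HSC class holds 23 cells. Pairs of libraries shared at most 12 barcodes. Kit, Ly6a (Sca1) and Ptprc (CD45), the genes of the sort markers, and the progenitor marker Cd34 were detected in every library. All 10 genes of the HSC marker list and all 8 of the MPP-3 list were highest in the class of that name, as were 5 of 8 MPP-4 markers but only 3 of 7 MPP-2 markers (Pf4 and Gata1 are on that list), so MPP-2 is used here as the authors' class name only. Cluster 6 (177 cells, 172 of them in the MPP-3 class) drew 62.3% of its UMIs from immunoglobulin genes, so its leading genes go against its class name.

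Levels are UMI counts scaled to a common library total (CPM) with TMM factors, and tests are on UMI sums per library, or per library and class or phase. Levels by cluster, marker sums and the values from the filter applied to AML replicate 2 are CPM without TMM. Fold changes are on the log2 scale with their SE, and a difference is called at an adjusted p (edgeR, Benjamini-Hochberg over all genes tested) under 0.05. In sums of cells, fewer cells that express a gene and less RNA per cell cannot be told apart.

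In PBS mice the largest differences between cell cycle phases were those of Dnmt1 and Ezh2. Dnmt1, Ezh2 and Idh2 were higher in S and in G2M than in G1, Asxl1 was higher in G2M, Idh1 and Kmt2a were lower in S, and Dnmt3a was lower in G2M. None of the members is in the phase gene lists distributed with Seurat, but the sources used here do not give the lists behind the deposited phase calls.

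Dnmt1 in PBS replicates 1, 2 and 3 was at 38.5, 25 and 34.2 CPM in G1, at 121, 95.1 and 129 CPM in S, and at 95, 65.7 and 95.1 CPM in G2M. Every library was highest in S, and the ranges of the 3 phases did not overlap between G1 and the cycling phases. The log2 fold change against G1 was 1.79 ± 0.06 in S (adjusted p = 5.06e-18) and 1.37 ± 0.07 in G2M (adjusted p = 3.19e-15).

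Ezh2 was at 58.9, 41.9 and 51.6 CPM in G1, at 192, 124 and 160.3 CPM in S, and at 200.4, 129.8 and 170.0 CPM in G2M. Unlike Dnmt1, it was no lower in G2M than in S in any library. Its log2 fold change was 1.65 ± 0.05 in S (adjusted p = 7.02e-19) and 1.72 ± 0.05 in G2M (adjusted p = 2.00e-19).

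Idh2 was at 211, 210.4 and 163 CPM in G1, at 329.8, 343 and 243 CPM in S, and at 271, 266 and 204 CPM in G2M. The order G1, G2M, S held in each library. The log2 fold change was 0.64 ± 0.04 in S (adjusted p = 3.49e-12) and 0.34 ± 0.05 in G2M (adjusted p = 5.28e-07).

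Its cytosolic counterpart Idh1 went the other way in S. Idh1 was at 11.9, 15.4 and 9.16 CPM in G1, at 6.82, 10.2 and 7.40 CPM in S, and at 9.49, 11.9 and 8.69 CPM in G2M, with a log2 fold change in S of -0.61 ± 0.14 (adjusted p = 7.15e-04). Without PBS replicate 1 this difference was -0.47 (adjusted p = 0.0698). Kmt2a was at 49.6, 36.7 and 47.7 CPM in G1 and at 34.1, 33.0 and 37.5 CPM in S, a log2 fold change of -0.41 ± 0.08 (adjusted p = 7.21e-05), and in G2M (45.7, 36.1 and 49.9 CPM) it differed from G1 by -0.04 ± 0.07 (adjusted p = 0.702).

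Dnmt3a was at 32.1, 29.2 and 35.2 CPM in G1 and at 24.4, 19.6 and 25.4 CPM in G2M, lower in each library, with a log2 fold change of -0.45 ± 0.09 (adjusted p = 1.05e-04). In S it was at 30.4, 23.8 and 35.5 CPM and was not called. Asxl1 was at 58.4, 47.8 and 47.9 CPM in G1 and at 66.6, 54.9 and 67.6 CPM in G2M, a log2 fold change of 0.30 ± 0.07 (adjusted p = 1.05e-03). With library size alone as the scaling, the Asxl1 difference in G2M was 0.09 (adjusted p = 0.268).

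Dnmt3b, Tet2 and Tet3 were called in neither phase, although Tet3 was called lower in S with library size alone. Dnmt3b was at 14.8 to 22.3 CPM in G1, 21.1 to 26.3 in S and 17.3 to 23.2 in G2M. Tet2 was at 16.4 to 21.8, 12.5 to 20.9 and 16.1 to 19.5 CPM, and Tet3 at 24.0 to 31.4, 18.1 to 31.6 and 22.7 to 28.9 CPM in the same order of phases. For each of these genes the ranges of the 3 phases overlapped. Tet2 in S was called without the expression filter (-0.34, adjusted p = 0.0118), with library size alone (-0.51, adjusted p = 0.00557) and without PBS replicate 3 (-0.73, adjusted p = 2.46e-04), but was at 0.03 without PBS replicate 1. Without PBS replicate 3, Asxl1 in S was also called, at -0.21 (adjusted p = 0.0457).

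In S, 3 of the 10 members were higher and 2 lower, where 29.4% of the 12262 genes tested were higher and 26.1% lower. In G2M, 4 were higher and 1 lower, where 28.5% of genes were higher and 24.8% lower. So the counts alone do not set the members apart from other genes. Without TMM scaling the median of all genes moved by -0.17 in S and -0.20 in G2M, and the counts of members became 3 higher and 6 lower in S and 3 higher and 4 lower in G2M. Among all genes the split then became 2602 higher and 4966 lower in S, and 2235 higher and 5171 lower in G2M. When the sums were split by class as well as phase, the S calls were the same 5 genes, but in G2M the differences of Dnmt3a (-0.22, adjusted p = 0.117) and Idh2 (0.14, adjusted p = 0.0760) were no longer called. In these split sums 5150 of 9644 genes were called in S and 3648 in G2M.

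**Figure D1:**
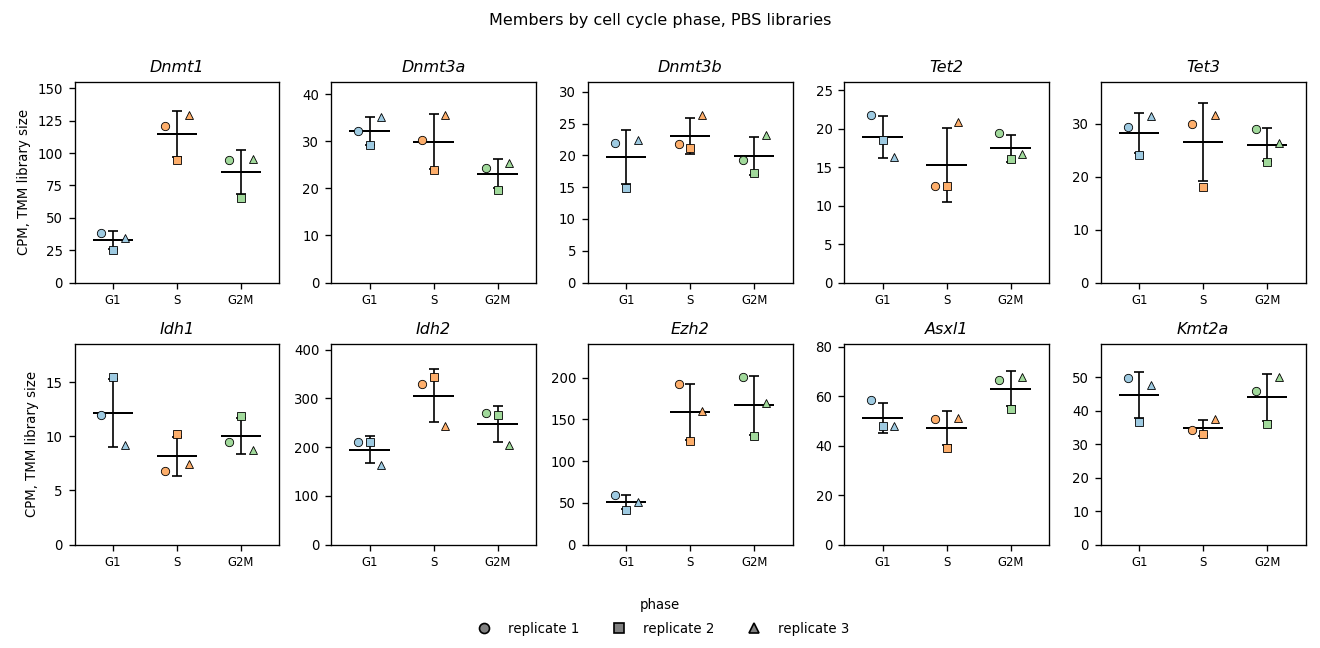
Level (CPM) of the 10 genes in G1, S and G2M cells of the PBS mice. Each point is 1 of 3 libraries, each horizontal line the mean and each error bar the SD. Dnmt1 and Ezh2 in S and G2M lie above G1 without overlap, and Tet2, Tet3 and Dnmt3b overlap between the phases.

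The authors' classes differ in their share of cycling cells. In the PBS libraries 84.1% to 87.9% of HSC class cells were in G1, against 71.7% to 75.9% of MPP-4, 55.5% to 58.5% of MPP-3 and 6.06% to 12.9% of MPP-2 cells. Each class is therefore compared with the HSC class over all cells, over G1 cells only, and with the phase held in the fit. The last was chosen after the data had been seen. The authors set the classes from module scores of these same cells, so the tests compare groups made from the data. Whether a member is among the genes that define a class cannot be checked here.

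Over all cells, Dnmt1, Ezh2 and Idh2 were higher and Dnmt3a and Kmt2a lower in both MPP-2 and MPP-3 than in the HSC class. In MPP-4 only Ezh2, Idh2 and Kmt2a were called, in the same directions. Dnmt3a and Dnmt3b, the writers of new methylation, had their highest mean in the HSC class, as did Kmt2a and Tet2. Only Kmt2a lay above the next class without overlap. The other means were 35.1 CPM against 33.0 in MPP-4 (Dnmt3a), 23.4 against 20.8 in MPP-3 (Dnmt3b) and 18.7 against 18.4 in MPP-4 (Tet2). Their order was thus not resolved. Among G1 cells, Dnmt3a (34.7 CPM) and Tet2 (21.1 CPM) had their highest mean in MPP-3.

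Among the methyltransferases, Dnmt1 in PBS replicates 1, 2 and 3 was at 48.2, 32.8 and 47.5 CPM in the HSC class, 109, 82.7 and 113 CPM in MPP-2, 69.4, 76.5 and 72.1 CPM in MPP-3, and 58.9, 36.6 and 50.1 CPM in MPP-4. MPP-2 lay above MPP-3 and MPP-3 above both other classes without overlap, whereas MPP-4 and HSC overlapped. The log2 fold change against the HSC class was 1.23 ± 0.09 in MPP-2 (adjusted p = 2.55e-11), 0.61 ± 0.11 in MPP-3 (adjusted p = 1.11e-04) and 0.19 ± 0.09 in MPP-4 (adjusted p = 0.137).

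Dnmt3a was at 34.8, 29.2 and 41.3 CPM in the HSC class, 23.7, 17.9 and 26.6 CPM in MPP-2, 24.6, 31.1 and 26.0 CPM in MPP-3, and 32.9, 29.4 and 36.7 CPM in MPP-4. All 3 libraries were lower in MPP-2 than in the HSC class, with a log2 fold change of -0.61 ± 0.10 (adjusted p = 1.66e-05). In MPP-3 the difference was -0.52 ± 0.13 (adjusted p = 0.00263), although PBS replicate 2, whose MPP-3 class holds 41 cells and 13 Dnmt3a UMIs, was higher there. Of these 41 cells 12 (29.3%) belong to cluster 6, against 6.66% and 9.48% in the other PBS libraries, and with clusters 6, 7 and 8 left out the difference was -0.51 and was called. That call was lost without PBS replicate 1 (-0.50, adjusted p = 0.0842) and without PBS replicate 3 (-0.42, adjusted p = 0.0977). In MPP-4 Dnmt3a differed by -0.10 ± 0.09 (95% CI -0.29 to 0.10).

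Dnmt3b was at 18.8 to 26.7 CPM in the HSC class and at 17.4 to 22.2 CPM in MPP-2, a log2 fold change of -0.31 ± 0.11 (adjusted p = 0.0237) with ranges that overlap. It was not called with DESeq2, without the expression filter, or without PBS replicate 1 (-0.14, adjusted p = 0.510). Its levels in MPP-3 (16.7 to 25.1 CPM) and MPP-4 (16.1 to 23.9 CPM) were not called against the HSC class.

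Of the Tet dioxygenases, Tet2 was at 21.2, 15.1 and 19.7 CPM in the HSC class and at 15.8, 14.3 and 16.4 CPM in MPP-2. It was lower in each library, with a log2 fold change of -0.32 ± 0.12 (adjusted p = 0.0294). This call did not hold with DESeq2, without the filter, with clusters 6, 7 and 8 left out, without PBS replicate 1 (-0.21, adjusted p = 0.370) or without PBS replicate 3 (-0.36, adjusted p = 0.0939), and with the phase held it was -0.30 ± 0.15 (adjusted p = 0.155). Tet2 in MPP-3 (14.4 to 19.1 CPM) and MPP-4 (17.6 to 19.0 CPM) was not called. Tet3 ranged from 18.2 to 34.0 CPM over the 4 classes, apart from 4.78 CPM (2 UMIs) in MPP-3 of PBS replicate 2, and was called in none.

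Idh2 was at 192, 166 and 136 CPM in the HSC class, 285, 309 and 213 CPM in MPP-2, 297.9, 285 and 224 CPM in MPP-3, and 246, 257 and 196 CPM in MPP-4. All 3 progenitor classes lay above the HSC class without overlap, and did overlap with each other. The log2 fold change was 0.68 ± 0.06 in MPP-2 (adjusted p = 2.84e-09), 0.70 ± 0.07 in MPP-3 (adjusted p = 3.40e-08) and 0.48 ± 0.06 in MPP-4 (adjusted p = 2.01e-06).

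Idh1 was at 11.1, 17.7 and 10.4 CPM in the HSC class and at 6.50, 10.2 and 7.26 CPM in MPP-2, a log2 fold change of -0.69 ± 0.19 (adjusted p = 0.00462). With the phase held it was -0.59 ± 0.26 (adjusted p = 0.0961). In MPP-3 it was at 12.6, 33.5 and 14.8 CPM, where the value of PBS replicate 2 rests on 14 UMIs, and in MPP-4 at 11, 11.3 and 6.94 CPM, and neither was called.

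Among the chromatin regulators, Ezh2 was at 71.6, 46.9 and 66.2 CPM in the HSC class, 199, 127 and 159 CPM in MPP-2, 127, 81.3 and 108 CPM in MPP-3, and 99.5, 67.9 and 84.2 CPM in MPP-4. The order HSC, MPP-4, MPP-3, MPP-2 held in each library. The log2 fold change was 1.39 ± 0.07 in MPP-2 (adjusted p = 2.27e-14), 0.78 ± 0.08 in MPP-3 (adjusted p = 5.10e-08) and 0.44 ± 0.07 in MPP-4 (adjusted p = 3.01e-05).

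Kmt2a was at 49.9, 56.8 and 57.6 CPM in the HSC class, 39.2, 32 and 41.0 CPM in MPP-2, 38.6, 31.1 and 44.4 CPM in MPP-3, and 46.1, 28.9 and 43.5 CPM in MPP-4. The HSC class was above each progenitor class without overlap. The log2 fold change was -0.49 ± 0.10 in MPP-2 (adjusted p = 2.99e-04), -0.46 ± 0.13 in MPP-3 (adjusted p = 0.00758) and -0.37 ± 0.10 in MPP-4 (adjusted p = 0.00710). The MPP-3 call was lost without PBS replicate 3 (-0.52, adjusted p = 0.0586), and the MPP-4 call without PBS replicate 2 (-0.24, adjusted p = 0.0609) or PBS replicate 3 (-0.37, adjusted p = 0.0956). Asxl1 lay between 36.0 and 60.9 CPM in every class and library and was not called in any class. Without the expression filter, Asxl1 was called higher in MPP-2 (0.22, adjusted p = 0.0453) and MPP-4 (0.24, adjusted p = 0.0438), and so it was with PBS and AML libraries together (0.20, adjusted p = 0.0435, and 0.22, adjusted p = 0.0424). With library size alone its MPP-2 difference was -0.05.

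In MPP-2, 3 members were higher and 5 lower, where 26.1% of 11793 genes were higher and 25.5% lower. In MPP-3, 3 were higher (20.2% of genes) and 2 lower (15.7%), and in MPP-4, 2 were higher (14.7%) and 1 lower (13.4%). Without TMM scaling the median of all genes moved by -0.23 in MPP-2 and by -0.33 in MPP-3, and the counts became 3 higher and 6 lower in MPP-2 and 3 higher and 5 lower in MPP-3. Among all genes, the MPP-3 split went from 2379 higher and 1848 lower to 931 higher and 4570 lower, and the MPP-2 split from 3075 and 3005 to 1767 and 4877.

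**Figure D2:**
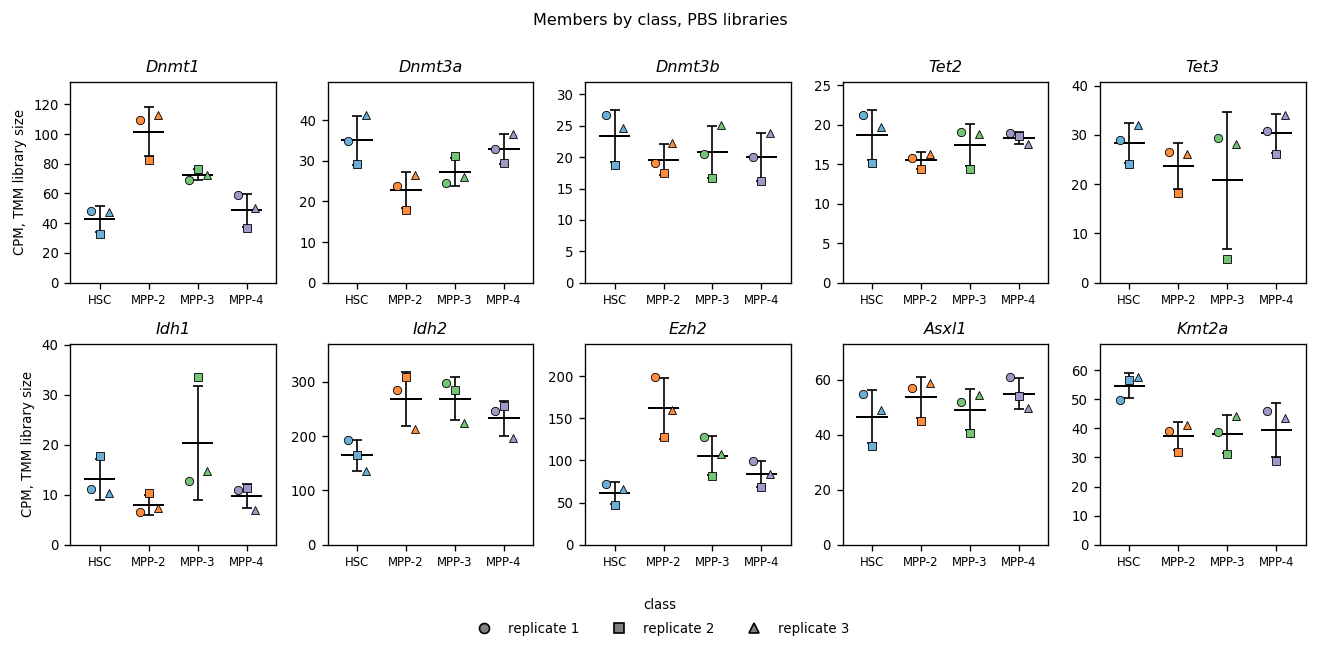
Level (CPM) of the 10 genes in the HSC class and the 3 MPP classes of the PBS mice. Each point is 1 of 3 libraries, each horizontal line the mean and each error bar the SD. Ezh2 is lowest in HSC and highest in MPP-2 in every library, and Kmt2a is highest in HSC.

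Among G1 cells fewer of these differences were called. In MPP-2, where PBS replicate 2 had too few G1 cells and 2 libraries remained, Dnmt1 was higher by 0.80 ± 0.19 (adjusted p = 0.0194) and Ezh2 by 0.70 ± 0.16 (adjusted p = 0.0163), where 3.25% of 10696 genes were called. When 1 of these libraries is left out, 1 MPP-2 sum remains, which is assumed to vary like the sums of the other classes. Without PBS replicate 1 the differences were then 1.02 (adjusted p = 0.0963) and 0.46 (adjusted p = 0.598), and without PBS replicate 3 they were 0.59 (adjusted p = 0.695) and 0.88 (adjusted p = 0.194). Both calls were also lost with library size alone as the scaling and after thinning of each cell to 2000 UMIs.

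Idh2 was the only member called among G1 cells of MPP-3 (15.0% of genes called), with a log2 fold change of 0.50 ± 0.11 (adjusted p = 0.00213). It was higher in 2 of 3 libraries, and PBS replicate 2 went the other way (155 CPM in the HSC class, 133 CPM from 23 UMIs in MPP-3). With clusters 6, 7 and 8 left out that sum had under 20 cells and was dropped, and the difference was 0.69 and was called. This value depends on the scaling: library size alone gave -0.07, with the median of all genes moved by -0.47, and 3 members lower and 0 higher. Among all genes 4041 were then lower and 317 higher. The call was also lost without PBS replicate 1 (0.48, adjusted p = 0.0872) or PBS replicate 3 (0.36, adjusted p = 0.356). In MPP-4 (19.5% of genes called), Idh2 was again the only member called, at 0.54 ± 0.09 (adjusted p = 4.68e-05) and higher in 3 of 3 libraries. Ezh2 in MPP-4 differed by 0.28 ± 0.10 (adjusted p = 0.0504) and Kmt2a by -0.35 ± 0.13 (adjusted p = 0.0614). Without PBS replicate 1 the Kmt2a difference was -0.63 (adjusted p = 0.00609).

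With each phase compared within itself, the differences of Dnmt1 and Ezh2 became smaller, and those of Dnmt3a and Kmt2a changed little. The fit with the phase held takes the phase sums of a library as separate observations, so its calls do not measure the spread between libraries alone. In MPP-2 (25.4% of 9791 genes called), Dnmt1 (0.51 ± 0.09), Ezh2 (0.45 ± 0.08) and Idh2 (0.38 ± 0.08) were higher, and Dnmt3a (-0.53 ± 0.12), Dnmt3b (-0.37 ± 0.13) and Kmt2a (-0.53 ± 0.12) were lower. In MPP-3 (26.0% called), Ezh2 (0.24 ± 0.09) and Idh2 (0.49 ± 0.09) were higher and Dnmt3a (-0.51 ± 0.14) and Kmt2a (-0.42 ± 0.13) lower. Dnmt1 in MPP-3, called over all cells, was at 0.06 ± 0.11 (adjusted p = 0.723). In MPP-4 (22.2% called), Ezh2 (0.22 ± 0.08) and Idh2 (0.38 ± 0.08) were higher and Kmt2a (-0.37 ± 0.10) lower, as over all cells.

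**Figure D3:**
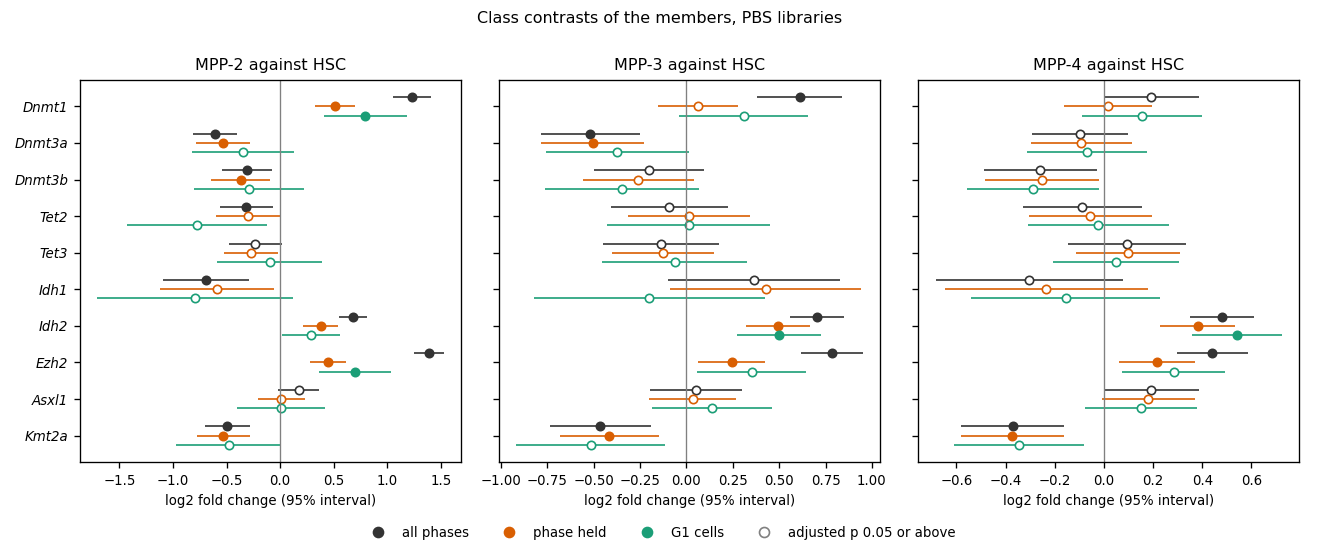
Log2 fold change of each gene in each MPP class against the HSC class of PBS mice, over all cells, with the phase held, and over G1 cells. Bars are 95% confidence intervals and filled points passed the adjusted p of 0.05. In MPP-2, Dnmt1 moves from 1.23 over all cells to 0.80 in G1 and Ezh2 from 1.39 to 0.70.

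The 9 clusters of the cell table were made from the genes of these cells, so levels by cluster are given as a description with no test, as pooled CPM of all libraries. Dnmt1 (121 CPM) and Ezh2 (181.7 CPM) were highest in cluster 3, in which 2.35% of cells were in G1. Idh1 (20.8 CPM) and Idh2 (319 CPM) were both highest in cluster 4, whose summed MPP-3 marker level (Mpo and Elane among them) was 6071 CPM. Idh1 was at 4.52 CPM in cluster 3, so the 2 isocitrate dehydrogenases agreed in cluster 4 and differed in cluster 3, where Idh2 was at 288 CPM.

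Dnmt3a (43.0 CPM), Dnmt3b (28.7 CPM) and Asxl1 (75.7 CPM) were highest in cluster 0, which holds 2334 of the HSC class cells and has the highest summed HSC marker level (920.3 CPM). For Dnmt3a cluster 0 was the highest in each of the 5 libraries, but for Dnmt3b not in PBS replicate 2 and for Asxl1 not in PBS replicate 1 or AML replicate 1. Tet2 was at 24.8 CPM in cluster 0 and 24.2 CPM in cluster 4, with library means of 27.2 ± 7.72 and 21.5 ± 9.58 CPM (SD, n = 5 each) that did not differ beyond their spread. Kmt2a was at 68.2 CPM in cluster 0 and 71.4 CPM in cluster 5, but the mean over libraries was 67.7 ± 13.7 CPM (SD, n = 5) in cluster 0 and 66.7 ± 17.1 CPM (SD, n = 4) in cluster 5, so their order was not resolved. Cluster 5 also had the lowest Dnmt1 (44.2 CPM) and Ezh2 (80.9 CPM) outside cluster 6, although 53.4% of its 339 cells were called G2M.

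All 10 members were lowest in cluster 6, at 1.62 (Idh1) to 46.4 (Idh2) CPM. When immunoglobulin UMIs were taken out of the totals, Dnmt1 and Ezh2 remained lowest there. Idh1, with 3 UMIs, could not be told apart from clusters 3 (4.52 CPM) and 7 (4.78 CPM from 4 UMIs), and the other 7 members were not lowest in cluster 6. Cluster 7, with a summed erythroid marker level of 12480 CPM, had 4 UMIs of Dnmt3b (4.74 CPM) and was at 13.0 CPM of Dnmt3a and 114 CPM of Idh2, with library means of 15.4 ± 12.5 and 115 ± 45.9 CPM (SD, n = 3), which did not differ beyond their spread from Dnmt3a in cluster 3 (16.8 ± 8.26 CPM, n = 5) or Idh2 in cluster 8 (154 ± 71.2 CPM, n = 3). Tet3 was highest in cluster 8 (43.2 CPM from 22 UMIs), whose T and NK cell markers summed to 1240 CPM, but its library means of 43.5 ± 21.5 CPM (SD, n = 3) in cluster 8 and 41.4 ± 9.46 CPM (SD, n = 5) in cluster 0 did not differ beyond their spread. With clusters 6, 7 and 8 left out, Tet2 in MPP-2 was the one call of the all-cell class and phase comparisons that was lost, and Tet2 in S the one that was gained.

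**Figure D4:**
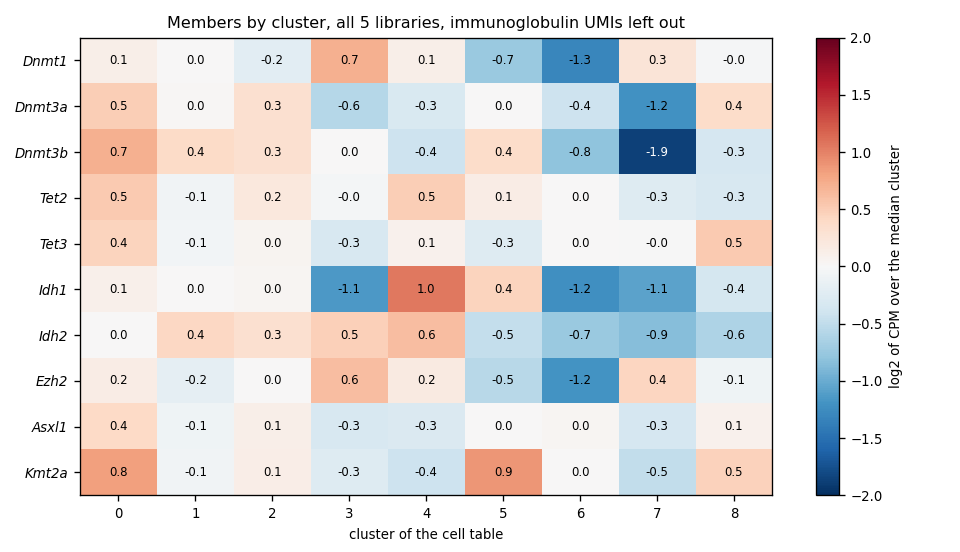
Log2 of the CPM of each gene in the 9 clusters over its median cluster, from pooled UMI counts of 5 libraries with immunoglobulin UMIs left out. Cluster 3 is highest for Dnmt1 and Ezh2, cluster 0 for Dnmt3a, Dnmt3b and Asxl1, and cluster 6 is lowest for Dnmt1 and Ezh2.

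The comparison of AML with PBS asks whether the host's stem and progenitor cells differ in these genes in a leukemic marrow. Over all cells, 0 of the 10 members were called, where 0.160% of 14364 genes (23 genes) were called. At an unadjusted p under 0.05 there were 2 members with edgeR, 1 with DESeq2 and 1 with limma-voom, and neither of the other tools called a member. The log2 fold changes were above 0 for 9 of the 10, with a median of 0.42 against -0.03 over all genes tested. Without AML replicate 1 the median was 0.21.

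PBS replicates 1, 2 and 3 gave 30.3, 25.5 and 33.5 CPM of Dnmt3a, and AML replicates 1 and 3 gave 45.9 and 38.7 CPM. Both AML libraries lay above all PBS libraries, but the difference of 0.49 ± 0.22 did not pass (adjusted p = 0.466). Tet3 was at 30.1, 22.2 and 30.9 CPM and at 45.4 and 37.6 CPM, also without overlap, and its difference was 0.56 ± 0.23 (adjusted p = 0.421). Tet2 was at 19.0, 16.4 and 18.2 CPM against 25.3 and 23.1 CPM, with a difference of 0.42 ± 0.21 (adjusted p = 0.510).

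Dnmt1 was at 78.4, 55.7 and 79.5 CPM in PBS and at 117 and 80.8 CPM in AML, so that AML replicate 3 was barely above the PBS range (0.46 ± 0.25, adjusted p = 0.536). Dnmt3b separated the AML libraries from each other: it was at 21.7, 17.4 and 24.3 CPM in PBS, at 49.0 CPM in AML replicate 1 and at 20.7 CPM in AML replicate 3. Without AML replicate 3 its difference was 1.21 (adjusted p = 0.0377), a call that rests on 1 AML library and assumes that it varies like the PBS group, and without AML replicate 1 the difference was -0.02.

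Asxl1 (59.8, 47.6 and 55.7 CPM against 83.0 and 63.7 CPM) and Kmt2a (45.3, 35.9 and 46.7 CPM against 53.6 and 49.5 CPM) did not overlap between the groups, with differences of 0.42 ± 0.23 (adjusted p = 0.530) and 0.27 ± 0.22 (adjusted p = 0.660). Ezh2 was at 88.3 to 137 CPM in PBS and at 153 and 127 CPM in AML (0.29 ± 0.25, adjusted p = 0.678). Idh1 (8.78 to 13.2 CPM against 15.0 and 9.83 CPM) and Idh2 (202 to 266 CPM against 171 and 247 CPM) overlapped between groups. For 6 of the 10 members AML replicates 1 and 3 exceeded all 3 PBS libraries, as they did for 14.6% of all genes tested. In AML replicate 2, taken with a filter of barcodes that does not use the cell table, 8 members lay above the PBS libraries filtered likewise, as did 37.0% of 14347 genes.

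**Figure D5:**
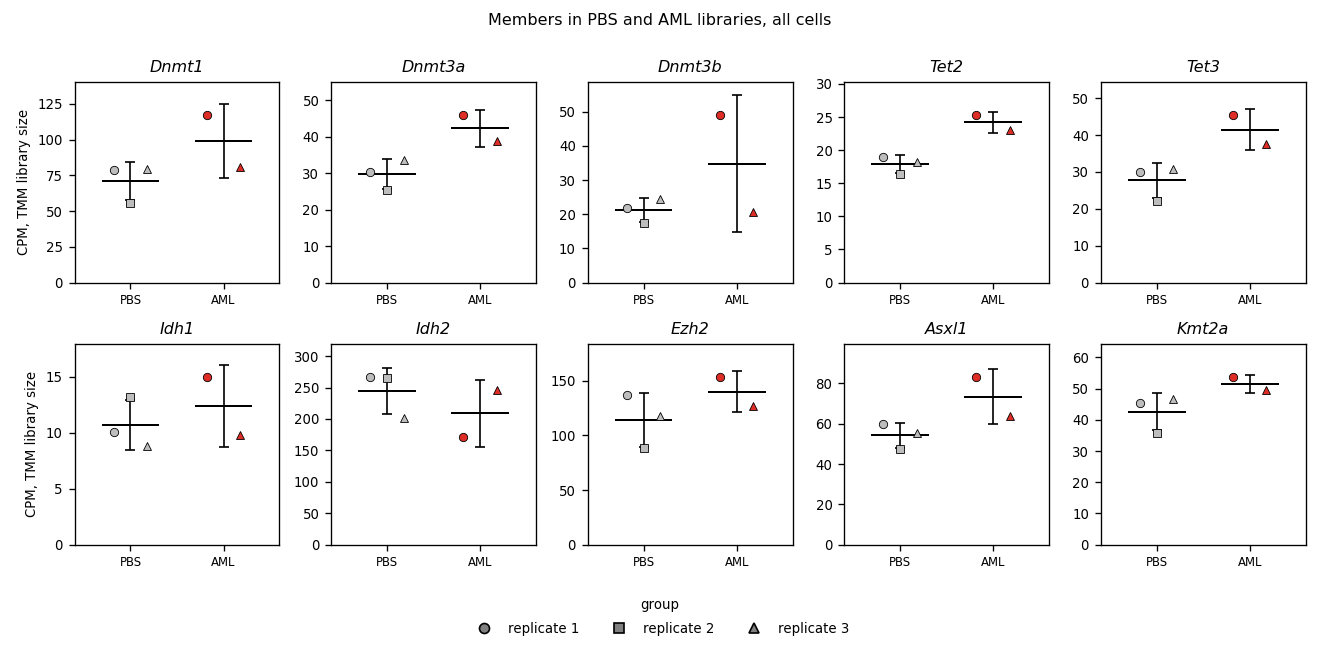
Level (CPM) of the 10 genes over all cells of each library, PBS against AML. Points are libraries, horizontal lines group means and error bars the SD. Dnmt3b is at 49.0 CPM in AML replicate 1 and at 20.7 CPM in AML replicate 3, and no gene passed the adjusted p of 0.05.

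The share of G1 cells moved with the groups, as given above, and so did the markers of 3 classes. The summed HSC marker level was 497 to 556 CPM in PBS and 330 and 366 CPM in AML, that of the MPP-2 markers 178 to 209 CPM in PBS and 136 and 170 CPM in AML, and that of the MPP-3 markers 792 to 1358 CPM in PBS and 1864 and 1865 CPM in AML. Of the mature lineages, the 6 T and NK cell markers summed to 153 to 182 CPM in PBS and 188 and 189 CPM in AML, whereas the ranges of neutrophil, erythroid, B cell, monocyte and mast cell markers overlapped between the groups, and no gene of these lists was at 0 in every library. With the mean of the 4 class levels (TMM) taken for each library, so that each class counts equally, 8 of the 10 differences were above 0, as a log2 ratio of group means with no test, which was chosen after the data had been seen. Idh1 moved most, from 0.12 to -0.16, and Kmt2a was at 0.38, where the HSC class of AML replicate 1 gave 8 Kmt2a UMIs. The differences other than Idh1 moved by less than their SE. On CPM without TMM, which changes the scaling as well, 9 of the 10 were above 0 and Kmt2a was at 0.55. The part of the lineage markers in these differences was not tested. Over G1 cells only, the differences were 0.59 ± 0.29 for Dnmt1, 0.38 ± 0.24 for Dnmt3a, 0.40 ± 0.24 for Tet3 and -0.28 ± 0.31 for Idh1, and 0 members were called.

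Within the classes, too, 0 members were called in each, where 0.178% of genes were called in the HSC class, 0.0325% in MPP-4, 0.0486% in MPP-3 and 0.0399% in MPP-2. DESeq2 called 0 in each class. The unadjusted p was under 0.05 for 1 member in MPP-2 (Dnmt3a, 0.57 ± 0.27) and 1 in MPP-3 (Tet3, 0.83 ± 0.37), and for none in the HSC class or MPP-4, all by edgeR. Without PBS replicate 2, which gave 2 Tet3 UMIs in MPP-3, that difference was 0.61.

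Dnmt1 had the smallest p for a difference of the AML effect between classes. It was at 108, 81.6 and 109 CPM in MPP-2 of PBS and at 112 and 97.3 CPM in AML, and at 61.5, 70.3 and 63.3 CPM in the MPP-3 class of PBS and 132 and 73.9 CPM in AML. In MPP-4 it was at 65.4, 40.4 and 56.7 CPM against 72.5 and 72.1 CPM. In the HSC class it was at 58.1, 39.5 and 58.5 CPM against 80.6 and 55.2 CPM. So Dnmt1 overlapped between the groups in MPP-2 and in the HSC class, and not in MPP-3 or MPP-4. The adjusted p of the test over all classes was 0.117, and it passed only without the expression filter. Of the 10 members, 0 were called in this test, where 0.872% of 12734 genes were called, and Kmt2a was the other member with an unadjusted p under 0.05 by edgeR (adjusted p = 0.440). In the HSC class, AML replicate 1 gave 6 UMIs of Dnmt1 and 1 of Dnmt3a, so differences there rest mainly on AML replicate 3.

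Partners of the members were read from 7 lists with 115 genes in all. In S against G1, 17 of 20 genes of the 2-oxoglutarate and TCA cycle list were called, 16 higher and 1 lower (29.4% of all genes were higher and 26.1% lower), with a list median of 0.34 against -0.02 over all genes. Idh3a (1.02 ± 0.06), a subunit of the NAD-dependent isocitrate dehydrogenase, and Fh1 (1.01 ± 0.06), fumarate hydratase, were highest, and D2hgdh (-0.46 ± 0.15), which removes D-2-hydroxyglutarate, was lower. With library size alone, 9 were higher and 3 lower, where 2602 of 12262 genes were higher and 4966 lower. In G2M, 11 were higher and 3 lower (28.5% and 24.8% of all genes), and with library size alone 10 and 6 (2235 and 5171 of 12262 genes).

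The Kmt2a target list (Hox genes of the A cluster, Meis1, Mecom and others) was mostly lower in S and G2M than in G1. In S all 9 were called, 7 lower and 2 higher (26.1% and 29.4% of all genes), with a median of -0.56 against -0.02 over all genes. Hoxa5 (-1.13 ± 0.16) and Hoxa10 (-0.77 ± 0.12) were lowest, and Cdk6 (0.56 ± 0.05), a kinase of G1 progression, and Pbx3 (0.42 ± 0.13), a Hox cofactor, were higher. In G2M, 6 were lower, Mecom (-0.82 ± 0.05) among them, and 1 was higher (24.8% and 28.5% of all genes). Under library size alone 7 were lower and 1 higher in S (4966 and 2602 of 12262 genes), as when sums were split by class (2630 and 2520 of 9644 genes). In G2M that split left 5 of 9 called, 4 lower and 1 higher, with a median of -0.28 in place of -0.60. Of 9644 genes, it called 1778 lower and 1870 higher.

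The other lists were mixed in S, where the shares of all genes are again 29.4% higher and 26.1% lower. Of the Polycomb and PR-DUB genes 8 of 21 were higher and 5 lower, led by Phf19 (1.73 ± 0.26) and Rbbp4 (1.02 ± 0.05), a histone-binding subunit of the complex of Ezh2, and by Phf1 (-1.60 ± 0.26). Phf19 (mean 1.65 CPM in G1 and 5.97 in S) and Phf1 (6.19 and 1.77 CPM) were at low levels, unlike Rbbp4 (135 and 277 CPM). Of the MLL complex list 6 of 15 were higher and 4 lower, with Dpy30 (1.05 ± 0.05) and Psip1 (1.03 ± 0.05) at the top and Mllt3 (-0.84 ± 0.06) at the bottom. Of the methylation partners and readers 3 of 10 were higher, such as Mbd4 (0.83 ± 0.12), a glycosylase at methylated CpG sites, and 2 lower, such as Zbtb38 (-0.55 ± 0.07).

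Uhrf1, Hells and Ctcf were left out of the phase counts because they are themselves phase genes in Seurat. Of the genes for demethylation and repair 3 of 10 were higher, led by Apex1 (0.87 ± 0.05), and 5 lower, led by Ogt (-0.69 ± 0.07), and of the other clonal hematopoiesis genes 14 of 26 were higher, led by U2af1 (1.00 ± 0.04), and 5 lower, led by Jak2 (-0.50 ± 0.10). In G2M, where 28.5% of all genes were higher and 24.8% lower, the counts of higher and lower genes were 5 and 1 for partners and readers, 3 and 5 for demethylation, 7 and 6 for Polycomb and PR-DUB, 4 and 3 for MLL, and 13 and 6 for the other clonal hematopoiesis genes, where Rad21 (1.77 ± 0.07), a cohesin subunit, led. Without TMM scaling the balance of 3 lists turned, where all genes were 2602 higher and 4966 lower in S, and 2235 and 5171 in G2M. In S the MLL list became 3 higher and 7 lower, the Polycomb and PR-DUB list 8 higher and 9 lower, and the partners and readers 2 higher and 3 lower. In G2M the MLL list became 2 higher and 5 lower and the Polycomb and PR-DUB list 6 higher and 9 lower, while the other clonal hematopoiesis genes became 9 higher and 7 lower. When sums were split by class, the MLL list had 2 higher and 5 lower in S, and 2 and 3 in G2M. The Polycomb and PR-DUB list then had 6 and 4 in S, and 4 and 2 in G2M. Of 9644 genes that split called 2520 higher and 2630 lower in S, and 1870 and 1778 in G2M.

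Among G1 cells, Kmt2a targets were called against the HSC class in all 3 MPP classes. The MPP-2 comparison rests on 2 libraries and called a smaller share of all genes, so the counts cannot be compared between classes. In MPP-4, where 19.5% of all genes were called, 6 of 9 were called: Hoxa9 (0.71 ± 0.08) and Cdk6 (0.63 ± 0.09) were higher, and 4 were lower, led by Pbx3 (-1.28 ± 0.15) and Mecom (-1.21 ± 0.09). In MPP-3 (15.0% of all genes called), 7 of 9 were called, 6 lower, led by Mecom (-1.58 ± 0.12) and Meis1 (-1.09 ± 0.11), and in MPP-2 (3.25% called), 4 of 9 were called, 3 lower. With library size alone 5 of 9 were called in MPP-4, 8 in MPP-3 and 1 in MPP-2, where 1532, 4358 and 90 of 10696 genes were called. Hoxa9 was thus higher in MPP-4 and, at -0.64 ± 0.16, lower in MPP-2. Mecom and the MLL fusion partner Mllt3 are also on the HSC marker list, and the sources used here do not list the genes that define the classes. Mllt3 was lower in all 3 classes, at -1.86 ± 0.08 in MPP-4, -1.58 ± 0.11 in MPP-3 and -1.29 ± 0.13 in MPP-2, values that were not tested against each other.

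Of the other lists in G1 of MPP-3, where 15.0% of all genes were called, 1 of 12 partners and readers, 3 of 10 demethylation, 2 of 20 Polycomb and PR-DUB, 3 of 15 MLL, 3 of 20 TCA and 2 of 27 other clonal hematopoiesis genes were called. With library size alone these counts were 8, 5, 9, 5, 5 and 13, all lower except 1 demethylation gene, so they depend on the scaling. In that fit 4358 of 10696 genes were called. In MPP-4 (19.5% of all genes) the counts were 1, 3, 1, 2, 5 and 2 in the same order, and in MPP-2 (3.25%) they were 0, 1, 0, 3, 2 and 0. With library size alone they became 1, 2, 0, 1, 1 and 0 in MPP-4 and 0, 0, 0, 1, 0 and 0 in MPP-2, where 1532 and 90 of 10696 genes were called. The demethylation list gave Gadd45b higher in MPP-3 (1.60 ± 0.41) and MPP-4 (1.15 ± 0.30) and Gadd45g lower (-1.02 ± 0.33 and -1.40 ± 0.21). Both were at low levels, with means in HSC, MPP-3 and MPP-4 of 4.22, 10.0 and 8.75 CPM for Gadd45b and 14.5, 10.2 and 5.51 CPM for Gadd45g. Bmi1 (-0.96 ± 0.28), a Polycomb subunit needed for stem cell self-renewal, and Kdm6a (-0.54 ± 0.16), a demethylase of the mark that Ezh2 writes, were lower in MPP-3. Of the TCA list, Mdh2 (0.50 ± 0.09) and Mdh1 (0.49 ± 0.08) were called higher in MPP-3, but with library size alone 0 genes of that list were.

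In AML against PBS, 0 genes of the 7 lists were called over all cells or in any class. The list medians over all cells lay between -0.37 (Kmt2a targets) and 0.20 (MLL complex). In the test of the AML effect between classes, Mecom (adjusted p = 0.0111) and Mllt3 (adjusted p = 0.0262) were called, named here after their values were seen. They are 2 of 114 list genes tested, where 0.872% of all genes were called.

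Over the 30 PBS sums per library, class and phase, the genes whose pattern was most like that of each member were found among 4046 genes by Pearson's r of the log2 level, as a description, since the sums share libraries and depth. Atad2 (r = 0.963) and Orc6 (r = 0.957) were most like Dnmt1, Ncapd3 (r = 0.947) and Usp1 (r = 0.945) most like Ezh2, and Ywhaq (r = 0.941) and Vdac2 (r = 0.936) most like Idh2. Dhx30 (r = 0.933) was most like Tet3, Ap3b1 (r = 0.890) most like Kmt2a, Myb (r = 0.885) most like Dnmt3b and Zc3h7a (r = 0.878) most like Asxl1. For Dnmt3a (Ttc14, r = 0.799), Idh1 (Anxa1, r = 0.695) and Tet2 (Zmynd8, r = 0.664) the nearest genes were less alike. The compared genes had a mean of at least 32 CPM, which Dnmt3a, Dnmt3b, Tet2, Tet3 and Idh1 do not reach (10.5 to 30.9 CPM).

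Among the members themselves the same 30 sums gave r = 0.911 for Dnmt1 and Ezh2, r = 0.817 for Dnmt3b and Tet3, and r = 0.755 for Tet3 and Kmt2a. Dnmt1 had r = 0.00237 with Dnmt3a and r = 0.482 with Dnmt3b, and Idh1 and Idh2 had r = -0.0553.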

How the data were processed

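LSK cells were profiled with 10x Chromium (GEM V3). Per the submitters' processing notes, the authors made the deposited gene by barcode UMI counts with Cell Ranger 7.0.1 on mm10 (GRCm38) and worked in R 4.2.2 with Seurat 4.3.0. The deposited cell table gives each kept cell its library, class, cluster, phase, UMI total, gene count and percent of mitochondrial UMIs, as the authors computed them, and 18 further columns of it were not used here. Classes were set by the authors from module scores. The sources used here do not give how cells and doublets were filtered or whether counting used strand.

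UMI counts of the table's cells were summed per library, and per library and class or phase where at least 20 cells remained. Sums were tested with edgeR 4.0.16 in R 4.3.3 (TMM, filterByExpr, quasi-likelihood F test, Benjamini-Hochberg over all genes tested, threshold 0.05). Class and phase comparisons used PBS libraries with the library as a term. The AML effect was also compared between classes with the class-by-treatment terms tested together. DESeq2 1.42.0 and limma 3.58.1 (voom) were alternatives. Fits were tested on simulated counts. Cells are not replicates. In AML against PBS, p-values measure the spread between libraries. In class and phase comparisons they measure how the differences vary from library to library. Fits on sums split by class and phase take several sums of a library as separate observations. Their p-values therefore do not measure the spread between libraries alone. The study gives an n of 3 for the AML mice, but does not tie libraries to mice. Library totals ran from 1945659 to 32123508 UMIs in the table's cells, and intervals for single libraries cover counting error only. A second filter, on barcodes with at least 1000 genes and at most 10% mitochondrial UMIs, was used for all 6 libraries. All 10 members are named throughout, and list genes are named where they had the 2 largest called changes in a direction. The members and lists were chosen with earlier results of these data known. No set test was run.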

Additional observations from a re-analysis of the deposited data

Results flagged for a closer look

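AML replicate 2 has no cell in the authors' table and so stands outside the comparisons, but its matrix holds counts of all 10 members. When barcodes with 1000 or more detected genes and no more than 10% mitochondrial UMIs were kept, 106 of its 17055 barcodes and 306059 UMIs remained. In these barcodes 8 members lay above all 3 PBS libraries filtered in the same way, as did 37.0% of 14347 genes. Dnmt1 was at 143.8 CPM (44 UMIs, 95% Poisson interval 104 to 193 CPM) against 55.7 to 85.0 CPM in PBS, and Ezh2 at 166.6 CPM (51 UMIs, 124 to 219 CPM) against 86.5 to 144 CPM. Dnmt3a was at 62.08 CPM (19 UMIs, 37.4 to 96.9 CPM) against 25.3 to 32.5 CPM, and Dnmt3b at 49.01 CPM (15 UMIs, 27.4 to 80.8 CPM) against 17.8 to 24.1 CPM. Asxl1 was at 81.68 CPM (25 UMIs, 52.9 to 121 CPM) against 45.9 to 62.6 CPM, and Kmt2a at 58.81 CPM (18 UMIs, 34.9 to 92.9 CPM) against 35.1 to 47.1 CPM. Tet3 at 32.67 CPM (10 UMIs) and Idh1 at 13.07 CPM (4 UMIs) exceeded the PBS range by less than their counting intervals of 15.7 to 60.1 and 3.56 to 33.5 CPM. The intervals of Ezh2, Asxl1 and Kmt2a also reach into the PBS range, whereas those of Dnmt1, Dnmt3a and Dnmt3b lie above it. Tet2 (19.6 CPM) and Idh2 (216 CPM) lay within the PBS range. These values are from 1 library with no phase or class calls, the intervals cover counting error only, and no explanation was tested.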

How the results depend on the processing

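No alternative called a member in AML against PBS within a class, and over all cells the count was 0 to 1 when each library was left out in turn (Dnmt3b without AML replicate 3). The test between classes called 1 member (Dnmt1) with no filter, where 506 of 21591 genes were called. Of the other counts of members called, MPP-2 in G1 (2 members) gave 0 with library size only, 0 with cells thinned to 2000 UMIs, 4 with clusters 6, 7 and 8 left out, and 0 to 2 when each library was left out. MPP-3 (5 members) gave 8 with library size only and 3 to 5 when each library was left out. MPP-3 in G1 (1 member) gave 3 with library size only, 2 with no filter, 3 with PBS and AML libraries together, 2 with clusters 6, 7 and 8 left out, and 0 to 1 when each library was left out. MPP-4 in G1 (1 member) gave 2 with library size only, 3 with no filter, 3 with PBS and AML libraries together, 3 with those clusters left out, and 1 to 2 when each library was left out. S (5 members) gave 9 with library size only, and G2M (5 members) gave 3 with sums per library, class and phase. The calls over all genes moved as well. MPP-2 in G1 went from 348 of 10696 to 90 with library size only, 228 of 7931 thinned and 920 of 10783 without those clusters. With library size only, MPP-3 went from 4227 of 11793 to 5501, and S from 6805 of 12262 to 7568. MPP-3 in G1 went from 1601 of 10696 to 4358, and MPP-4 in G1 from 2081 to 1532, likewise. G2M went from 6526 of 12262 to 3648 of 9644 with the split sums. With no filter, MPP-3 and MPP-4 in G1 called 1799 and 2468 of 19466 genes. With PBS and AML libraries together they called 2645 and 2548 of 10279 genes, and without those clusters 1516 and 2648 of 10783. The cause was not tested. Leaving out clusters 6, 7 and 8 in the class and phase comparisons, and holding the phase, were chosen after seeing the data.

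The log2 fold changes that changed sign are given with the comparison in parentheses, and of these only Idh2 (MPP-3 in G1) had been called. With library size only they were Dnmt3b 0.090 (AML HSC), Idh1 0.11 and Kmt2a 0.000800 (AML MPP-3), Asxl1 -0.053 (MPP-2), Asxl1 -0.079 (MPP-2 in G1), Asxl1 -0.27 (MPP-3), Dnmt1 -0.13, Tet2 -0.42, Idh2 -0.066, Ezh2 -0.094 and Asxl1 -0.31 (MPP-3 in G1), Tet3 -0.00578 (MPP-4 in G1) and Dnmt3b -0.018 (S). With no filter they were Idh1 0.0064 (AML MPP-3), Asxl1 -0.030 (MPP-2 in G1), Tet2 -0.0064 (MPP-3 in G1) and Tet2 0.022 (MPP-4 in G1), and with DESeq2 Dnmt3b 0.042 (AML HSC) and Tet2 0.016 (MPP-4 in G1). With G1 cells only they were Idh1 -0.28 (AML all cells), Idh2 0.079 (AML MPP-2), and Dnmt3b -0.15, Idh1 0.074 and Kmt2a 0.32 (AML MPP-3). With cells thinned to 2000 UMIs they were Idh1 -0.13 (AML all cells), Dnmt3b 0.027, Tet3 0.12 and Asxl1 -0.21 (MPP-2 in G1), and Dnmt1 -0.0734, Tet2 0.13 and Tet3 -0.074 (MPP-4 in G1). With PBS and AML libraries together they were Tet2 -0.092, Tet3 0.086 and Idh1 0.025 (MPP-3 in G1), with clusters 6, 7 and 8 left out Tet3 0.015 (MPP-3 in G1), with the phase held Tet2 0.015 (MPP-3), and with sums per library, class and phase Dnmt3a 0.062 and Tet3 0.00968 (S) and Kmt2a 0.069 (G2M).

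The labels number the libraries of both groups but do not say that a number marks a shared mouse or day. Deviations from the group means correlated at -0.095 for the libraries numbered 1 and at -0.13 for those numbered 3. With 2 AML libraries, each AML deviation is the negative of the other, so these values cannot show whether the numbers mark pairs. As the labels give no pairing, the libraries were not treated as pairs. With the replicate block 0 members were called over all cells and in each class, and the sign changed for Dnmt1 -0.059 and Ezh2 -0.094 (AML MPP-2), Idh1 0.30 (AML MPP-3) and Idh1 0.090 (AML MPP-4).

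When each library was left out in turn, these values changed sign and ranged as follows: Dnmt3b -0.022 to 1.21, Idh1 -0.092 to 0.50 and Idh2 -0.51 to 0.030 (AML all cells), Dnmt1 -0.00831 to 0.57, Dnmt3a -1.71 to 0.49, Dnmt3b -0.18 to 0.44, Tet2 -0.82 to 0.39, Ezh2 -0.057 to 0.47 and Asxl1 -0.13 to 0.33 (AML HSC). In the other classes of AML against PBS they were Dnmt1 -0.053 to 0.17, Dnmt3b -0.12 to 1.27, Idh1 -0.11 to 0.74 and Ezh2 -0.099 to 0.23 (AML MPP-2), and Dnmt3b -0.31 to 1.01, Idh1 -0.34 to 0.32 and Idh2 -0.80 to 0.17 (AML MPP-3). In the PBS libraries they were Tet3 -0.43 to 0.15 and Asxl1 -0.043 to 0.14 (MPP-2 in G1), Dnmt3b -0.32 to 0.013 (MPP-3), Tet2 -0.068 to 0.27 and Idh1 -0.58 to 0.39 (MPP-3 in G1), Tet2 -0.17 to 0.030 (MPP-4), Tet2 -0.13 to 0.18 (MPP-4 in G1), Tet2 -0.73 to 0.026 and Tet3 -0.14 to 0.0094 (S), and Dnmt3b -0.097 to 0.072 and Kmt2a -0.0761 to 0.00967 (G2M). With equal weight per class, Idh1 over all cells of AML against PBS was -0.16 on TMM levels, and Kmt2a was 0.38 on TMM levels and 0.55 on CPM without TMM. The values with the fewest cells are those of the HSC class in AML replicate 1 (23 cells) and of the MPP-3 class in PBS replicate 2 (41 cells).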
